A study of Mus musculus with 2 samples.

Results

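The metallothioneins Mt1 and Mt2, the zinc importers Slc39a8 and Slc39a14, the zinc exporter Slc30a1 and the zinc-sensing transcription factor Mtf1 were followed in liver endothelial cells of control and Maf LSEC-KO mice. These 6 genes were taken by symbol from the 32285 genes counted by droplet-based 3′ scRNA-seq, and each symbol matched 1 gene. They were chosen because their levels had already been seen to differ between the libraries of this series, so the differences between control and Maf LSEC-KO cells are given as a description and carry no test. Control mice were littermates, Clec4g-iCre wt/wt with Maf fl/fl or Maf fl/wt, although the sample label calls them wild type. Maf LSEC-KO mice were Clec4g-iCre tg/wt with Maf fl/fl, so that Maf is deleted where the Clec4g promoter is active, which is mainly in liver sinusoidal endothelial cells (LSECs). Floxed Maf alleles are thus carried by both groups. For each group, livers of 3 mice were pooled, digested with collagenase and enriched with antibodies to CD146, and 1 library was made. The mice of the study as a whole were male and female and 3 or 6 months old, and which of these ages the pools had is not given in the sources used here.

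Metallothioneins are small cysteine-rich proteins that bind zinc and copper and buffer free zinc in the cell. When zinc rises, MTF1 binds short metal response elements in promoters and switches on the metallothionein genes and Slc30a1, which encodes ZnT1, the exporter of zinc at the plasma membrane. Slc39a8 (ZIP8) and Slc39a14 (ZIP14) carry zinc, manganese and iron into cells. The liver is a main site of metallothionein production, and Maf encodes c-Maf, a transcription factor of LSEC identity.

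With 1 library per group there was no replicate, and all intervals below are 95% intervals that cover counting error only. LSECs numbered 4110 in control, with a median of 8399 unique molecular identifiers (UMIs, 1 per captured mRNA molecule) per cell, and 3252 in Maf LSEC-KO, with a median of 13870.5 UMIs. Levels are CPM, the usual scaled count: the UMIs of a gene summed over the cells and scaled by the summed UMIs outside mitochondrial and ribosomal protein genes. Maf was at 3465 CPM in control and 125 CPM in Maf LSEC-KO LSECs, 27.8-fold lower, and 349 Maf LSEC-KO LSECs (10.7%) still held at least 2 Maf UMIs, against 97.5% of control LSECs. All 14 general endothelial genes examined were found in at least 50% of LSECs of both libraries. Of 8 LSEC genes, 8 were found in at least 50% of control and 5 in at least 50% of Maf LSEC-KO LSECs, and all were lower in the latter. Of the genes that tell sex, Xist had 3 UMIs in control and 12 UMIs in Maf LSEC-KO LSECs while the Y-linked Ddx3y had 4160 and 2834 UMIs. By these genes, the LSECs of both pools were from male mice. The libraries shared 10 cell barcodes.

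The 6 genes lie on 5 chromosomes. Mt2 (ENSMUSG00000031762, chr8:94172664-94173568) and Mt1 (ENSMUSG00000031765, chr8:94179082-94180327) are neighbours on the plus strand of mm10, 5513 bases apart, and their annotated transcripts share no exact run longer than 20 bases, so that reads of the pair can be told apart. Slc39a8 (ENSMUSG00000053897) spans chr3:135825279-135888572, Slc30a1 (ENSMUSG00000037434) chr1:191906767-191913247 and Mtf1 (ENSMUSG00000028890) chr4:124802104-124849800, all on the plus strand, and Slc39a14 (ENSMUSG00000022094) spans chr14:70303469-70351425 on the minus strand. Annotated exons of Gm45774, 1700034H15Rik and 1110065P20Rik overlap those of Mt2, Slc30a1 and Mtf1 on the opposite strand, and the counts of 10x libraries use strand. Promoter sequences from RefSeq (GRCm38.p6, the assembly of mm10) were found for 5 of the 6 genes. They are shown for the 3 genes whose levels differed most between the libraries and for Slc30a1, which like the metallothionein genes is known to respond to MTF1, from 250 bases before to 30 bases after the annotated start. Capitals mark the metal response element core, searched as TGCACNC or TGCGCNC on both strands, and TGANTCAGC on both strands, the AP-1-like centre and 1 flank of the element that Maf proteins are known to bind. The letters searched were chosen with these sequences in view.
Mt1 (chr8:94178839-94179118, plus strand): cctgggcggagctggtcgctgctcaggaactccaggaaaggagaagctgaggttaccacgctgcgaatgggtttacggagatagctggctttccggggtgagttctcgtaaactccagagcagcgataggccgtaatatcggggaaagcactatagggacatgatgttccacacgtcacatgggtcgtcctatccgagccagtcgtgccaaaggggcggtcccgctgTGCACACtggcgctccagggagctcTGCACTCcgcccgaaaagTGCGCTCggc
Mt2 (chr8:94172368-94172647, plus strand): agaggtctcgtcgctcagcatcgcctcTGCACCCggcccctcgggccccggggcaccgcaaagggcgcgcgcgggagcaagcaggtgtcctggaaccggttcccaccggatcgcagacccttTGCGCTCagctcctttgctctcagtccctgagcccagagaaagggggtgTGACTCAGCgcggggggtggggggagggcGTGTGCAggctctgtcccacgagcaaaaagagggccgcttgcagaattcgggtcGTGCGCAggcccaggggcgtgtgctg
Slc39a8 (chr3:135825029-135825308, plus strand): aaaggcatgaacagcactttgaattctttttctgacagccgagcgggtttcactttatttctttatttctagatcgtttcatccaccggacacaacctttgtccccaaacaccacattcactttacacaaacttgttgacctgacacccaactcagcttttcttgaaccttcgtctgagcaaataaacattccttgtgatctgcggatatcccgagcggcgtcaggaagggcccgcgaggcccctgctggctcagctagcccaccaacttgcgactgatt
Slc30a1 (chr1:191906531-191906810, plus strand): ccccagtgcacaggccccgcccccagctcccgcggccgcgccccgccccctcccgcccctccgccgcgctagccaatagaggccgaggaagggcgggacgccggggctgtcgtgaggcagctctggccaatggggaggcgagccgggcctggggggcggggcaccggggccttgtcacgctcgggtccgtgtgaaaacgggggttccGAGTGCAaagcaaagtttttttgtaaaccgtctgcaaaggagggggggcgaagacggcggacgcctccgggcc

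The metal response element core occurred 3 times in the Mt1 window, 4 times in the Mt2 window, 1 time in the Slc30a1 window and not in the Slc39a8 window shown. Of 32817 promoter windows of the same length, 24.1% held at least 1 core and 6.37% held at least 2. TGANTCAGC was found in the Mt2 window, 79 bases before the start, and in 1.12% of all windows, but in none of the other windows shown. The whole Maf recognition element, with both flanks, was found in none of the members' windows. It was found in only 2 of the 32817 windows, so nothing is read from its absence here. The second annotated start of Slc39a8 (window chr3:135825407-135825686) held 1 metal response element core and the Mtf1 window held none. These matches describe letters, not occupied sites.

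Metallothionein mRNA was abundant in control LSECs and low in Maf LSEC-KO LSECs. Mt1 was at 453 CPM (445 to 460; 14922 UMIs) in control and at 64.9 CPM (62.4 to 67.4; 2608 UMIs) in Maf LSEC-KO LSECs, a 6.98-fold lower level. Mt2 was at 92.2 CPM (88.9 to 95.5; 3038 UMIs) and 9.53 CPM (8.60 to 10.5; 383 UMIs), which is 9.67-fold lower. The counting intervals of the libraries did not overlap for either gene, nor did they for Slc39a8, Slc39a14 and Slc30a1. The share of all genes for which this holds was not counted, so nothing is read from it. Mt1 was found in 73.5% of control and 25.6% of Maf LSEC-KO LSECs, although the latter held more UMIs per cell. After every cell had been thinned to 2700 UMIs (406 LSECs of control and 187 of Maf LSEC-KO were too shallow), these shares were 52.5% (50.9 to 54.2) and 9.43% (8.42 to 10.5). Mt2 was found in 36.1% and 5.44% of LSECs before thinning, and in 18.3% and 2.25% after it. T/NK cell-like cells were taken as a measure of background. In them the thinned share with a Mt1 UMI was 8.70% of 23 control cells (1.07 to 28.0) and 1.79% of 56 Maf LSEC-KO cells (0.0452 to 9.55), at median depths of 6892 and 5836.5 UMIs.

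The importer Slc39a8 showed the lowest ratio of the 6 genes. It was at 221 CPM (216 to 226; 7278 UMIs) in control and 19.8 CPM (18.4 to 21.2; 795 UMIs) in Maf LSEC-KO LSECs, 11.2-fold lower, and its share of LSECs went from 63.2% to 13.4%, or from 36.8% to 3.78% after thinning. Its close relative Slc39a14 was rare in both libraries. Slc39a14 was at 5.28 CPM (4.52 to 6.12; 174 UMIs) in control and 8.58 CPM (7.70 to 9.54; 345 UMIs) in Maf LSEC-KO LSECs, 1.63-fold higher. Its thinned shares were 1.16% and 1.70%, while 1.79% of T/NK cell-like cells (0.0452 to 9.55) of the Maf LSEC-KO library held a UMI of it, so its share in LSECs could not be told from background at this depth.

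The exporter and the zinc sensor differed far less. Slc30a1 was at 46.1 CPM (43.9 to 48.5; 1521 UMIs) in control and 30.8 CPM (29.1 to 32.5; 1236 UMIs) in Maf LSEC-KO LSECs, with a log2 ratio of -0.59 (-0.69 to -0.48). Mtf1 was at 34.8 CPM (32.8 to 36.9; 1148 UMIs) and 33.4 CPM (31.7 to 35.3; 1343 UMIs), with overlapping intervals. The log2 ratio of Mtf1 was -0.06 (-0.17 to 0.06). Among the 3 genes known to respond to MTF1, the log2 ratio was thus -0.59 for Slc30a1, -2.80 for Mt1 and -3.27 for Mt2.

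**Figure D1:**
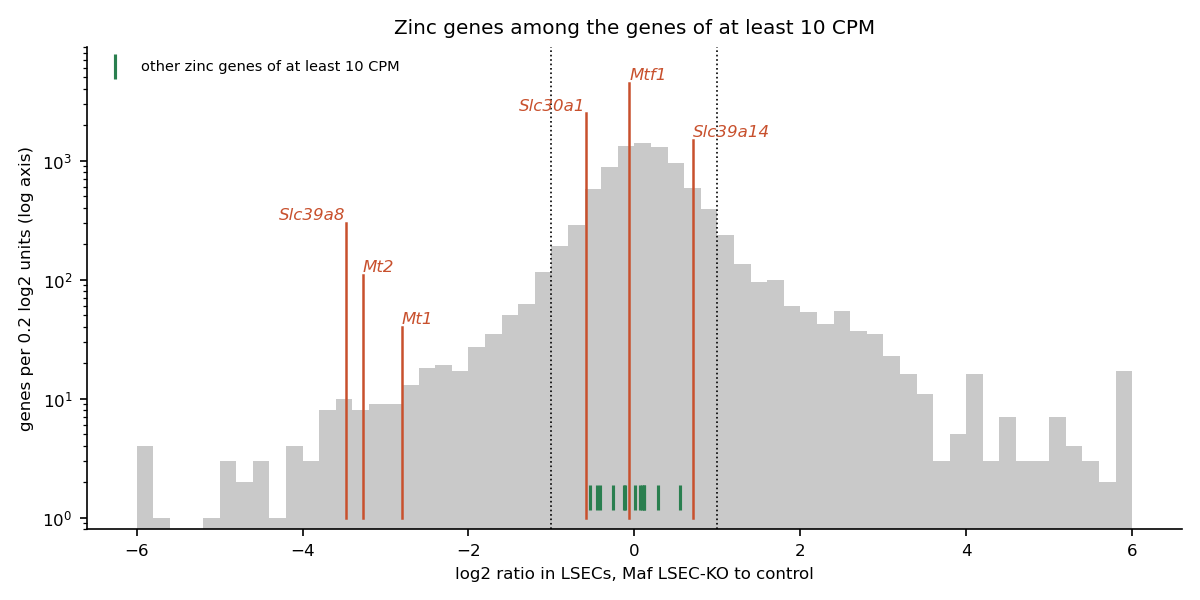
Grey bars count genes that reached 10 CPM in LSECs of a library and had UMIs in both, by the log2 ratio, Maf LSEC-KO over control (log axis for the counts; ratios beyond 6 in size are placed in the outermost bars); red lines mark the 6 genes (Slc39a14 is below 10 CPM), green ticks 13 other zinc genes, and dotted lines a 2-fold difference. Slc39a8, Mt2 and Mt1 lie at -3.48, -3.27 and -2.80 in the lower tail, whereas every green tick lies between the dotted lines.

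Of 9317 genes that reached 10 CPM in LSECs of control or Maf LSEC-KO, 423 (4.54%) were at least 2-fold lower and 975 (10.5%) at least 2-fold higher in Maf LSEC-KO LSECs, and the median log2 ratio was 0.14. The split depended on the scaling, with 599 lower and 749 higher where mitochondrial and ribosomal protein genes were kept in the total, and 557 and 776 with TMM scaling. Of the 6 genes, 5 passed this minimum (Slc39a14 did not), and Mt1, Mt2 and Slc39a8 were at least 2-fold lower. As the genes were picked with this contrast known, nothing is read from that count. Slc39a8 ranked 34, Mt2 ranked 44 and Mt1 ranked 66 from the lowest ratio, and Slc30a1 ranked 931.

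The other zinc handling genes of at least 10 CPM were within 2-fold. A list of 23 other metallothionein and zinc transporter genes had 13 genes of at least 10 CPM, of which 0 were 2-fold lower and 0 were 2-fold higher, with a median log2 ratio of 0.01. The exporters of this list that load zinc into the secretory pathway and vesicles were Slc30a4 (17.2 CPM in control and 12.8 in Maf LSEC-KO), Slc30a5 (38.4 and 40.8), Slc30a6 (11.3 and 10.4) and Slc30a7 (45.4 and 37.9), and Slc30a9, a mitochondrial zinc transporter, was at 61.1 and 61.5 CPM. The importers spanned log2 ratios from -0.54 for Slc39a1, the most abundant importer after Slc39a8 in control LSECs (143 and 98.2 CPM), to 0.55 for Slc39a11 (7.74 and 11.3 CPM). Slc39a10 was at 49.0 and 59.8 CPM, Slc39a7, which releases zinc from the endoplasmic reticulum, at 68.6 and 63.5 CPM, and Slc39a9 at 33.1 and 24.1 CPM. Slc39a3 (19.5 and 20.4 CPM), Slc39a6 (12.1 and 13.04 CPM) and Slc39a13 (16.5 and 17.8 CPM) differed by 0.11 or less on the log2 scale. Slc39a8 was thus above each importer of the list in control LSECs. In Maf LSEC-KO LSECs it was below Slc39a1, Slc39a7, Slc39a10 and Slc39a9 and about level with Slc39a3 (19.8 against 20.4 CPM). A molecule is counted 1 time at its 3′ end whatever its length, so these levels were compared without a length correction. Mt3, Mt4, Slc30a3 and Slc30a8 had 0 UMIs in LSECs of both libraries, which allows 3 UMIs each. Below the minimum, Slc39a12 had 136 and 23 UMIs (4.13 and 0.572 CPM), Slc39a4 had 5 and 20 UMIs and Slc30a2 had 1 and 12 UMIs, genes singled out after their values were seen.

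Lists of metal handling and of stimuli known to induce metallothioneins held few genes that were as low. Of 11 copper and iron genes, 9 had at least 10 CPM, with 1 at least 2-fold lower, 0 at least 2-fold higher and a median log2 ratio of 0.10. The 1 gene was Slc40a1, the iron exporter ferroportin, at 284 and 68.2 CPM. Below the minimum, Tfrc, the transferrin receptor, had 28 and 344 UMIs (0.849 and 8.56 CPM), and Nqo1 of the oxidative stress list was at 9.62 and 3.01 CPM, both named after their values were seen. The 5 oxidative stress genes of at least 10 CPM (of 7) held 0 past 2-fold in either direction, with a median of 0.04, and Hmox1 was at 39.8 and 40.8 CPM. The 6 glucocorticoid-responsive genes of at least 10 CPM (of 7) also held 0, with a median of 0.13. Of 5 acute-phase genes of at least 10 CPM (of 8), 2 were lower and 1 was higher: Il6st, the shared receptor chain of the interleukin-6 family, was at 1624 and 522 CPM, Osmr, the oncostatin M receptor, at 125 and 26.8 CPM, and Socs3 at 37.2 and 89.8 CPM. Of the genes that tissue digestion is known to induce, 7 of 8 were at least 2-fold higher in Maf LSEC-KO LSECs, with a median log2 ratio of 1.56 and a summed level of 968 and 2803 CPM, Fos at 96.1 and 267 CPM, Jun at 384 and 1108 CPM and Hspa1a at 93.0 and 299.6 CPM among them. Hepatocytes are rich in metallothioneins, and the summed level of 8 hepatocyte genes in LSECs was 171 CPM in control and 90.9 CPM in Maf LSEC-KO, with all 8 detected in both and 4 of the 7 of at least 10 CPM at least 2-fold lower. The part of cell stress at digestion in the metallothionein difference was not tested. A limit of under 0.2% hepatocyte UMIs kept 99.4% of control and 99.1% of Maf LSEC-KO LSECs. With it the log2 ratio of Mt1 was -2.81 and that of Mt2 -3.28. So few cells were left out that the ratios could hardly move, and the part of hepatocyte mRNA in them was not tested.

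Within the Maf LSEC-KO library, Mt1, Mt2 and Slc39a8 were high in the LSECs with most Maf mRNA. Mt1 was at 35.9 CPM (33.8 to 38.1) in the 2557 LSECs with 0 Maf UMIs, at 39.5 CPM (34.4 to 45.2) in the 346 with 1, at 75.2 CPM (64.1 to 87.7) in the 136 with 2 to 4 and at 505 CPM (476 to 535) in the 213 with 5 or more. Mt2 was at 3.49, 4.45, 7.89 and 104 CPM in the same order, and Slc39a8 at 11.5, 12.8, 12.998 and 154 CPM. For these 3 genes LSECs with 0 and with 1 Maf UMI overlapped in their intervals, and those with 5 or more stood far above. At 2 to 4 Maf UMIs, Mt1 and Mt2 were above the level at 0, whereas Slc39a8 (8.64 to 18.8 CPM) still overlapped it (10.3 to 12.8 CPM). Median depths were 13609, 18009.5, 16674 and 10164 UMIs, so the cells with most Maf UMIs were the shallowest. The split at 5 Maf UMIs was added after the data had been seen.

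**Figure D2:**
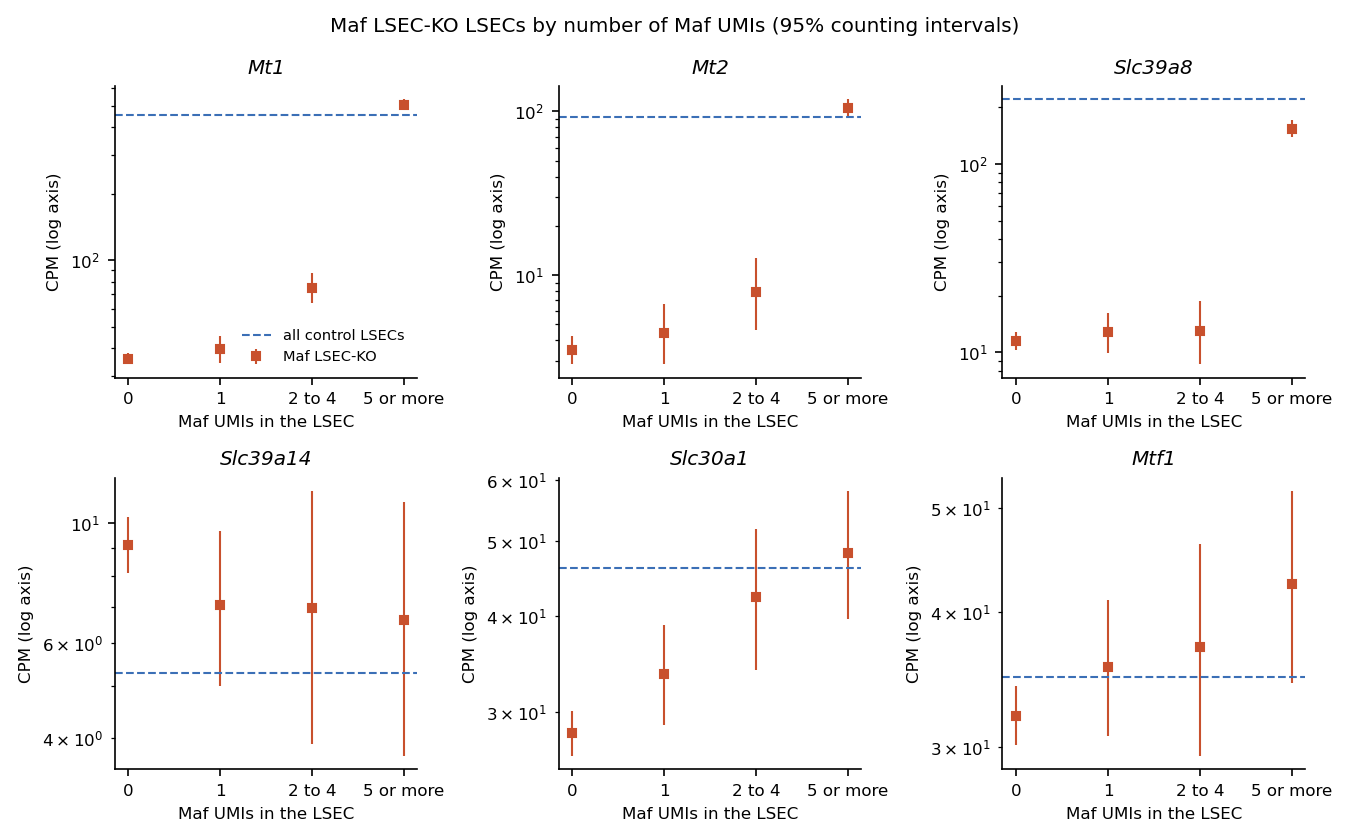
Level in CPM (log axis) of each of the 6 genes in Maf LSEC-KO LSECs grouped by the number of Maf UMIs in the cell; points are summed levels, bars 95% counting intervals and the dashed blue line the level over all control LSECs. Mt1 reaches 505 CPM and Mt2 104 CPM in cells with 5 or more Maf UMIs, above the control lines at 453 and 92.2 CPM, while Slc39a8 reaches 154 CPM, below the control line at 221 CPM.

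LSECs with at least 2 Maf UMIs held 8.24-fold more Mt1 than those with 0 (log2 ratio 3.04, 2.93 to 3.16), 16.4-fold more Mt2 (4.04, 3.70 to 4.38) and 7.43-fold more Slc39a8 (2.89, 2.68 to 3.11). Of 9347 genes that reached 10 CPM in either set, 275 (2.94%) were at least 2-fold higher in the cells with Maf. The other 3 genes were not among them: the log2 ratio was 0.69 (0.46 to 0.91) for Slc30a1, 0.31 (0.07 to 0.55) for Mtf1 and -0.42 (-1.02 to 0.12) for Slc39a14. The 349 cells with at least 2 Maf UMIs held 10.99% of the scaled UMIs of Maf LSEC-KO LSECs, but 50.04% of the Mt1, 66.1% of the Mt2 and 47.4% of the Slc39a8 UMIs. Their share of Slc30a1 was 16.2%, of Mtf1 13.1% and of Slc39a14 8.70%, nearer to their share of all UMIs. Cells left with Maf mRNA and cells left with other LSEC traits cannot be told apart here, since the LSEC gene Clec4g was also higher, at 2058 CPM with 5 or more and 1470 CPM with 0 Maf UMIs. The hepatocyte genes summed to 153 and 87.3 CPM in the same cells.

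In LSECs with 0 Maf UMIs the shares were close to background. After thinning to 2700 UMIs, 5.34% (4.47 to 6.32) of 2397 such cells held a Mt1 UMI, against 1.79% (0.0452 to 9.55) of T/NK cell-like, 4.94% (1.36 to 12.2) of neutrophil-like and 5.13% (0.627 to 17.3) of B cell-like cells of the same library. Slc39a8 was found in 1.88% (1.37 to 2.50) of them, against 3.57% (0.435 to 12.3) of T/NK cell-like and 0.346% (0.00876 to 1.91) of macrophage-like cells, 0 of 81 neutrophil-like cells (upper limit 3.70%) and 0 of 39 B cell-like cells (upper limit 7.69%). Mt2 was found in 0.626% (0.351 to 1.03) of them, against 0 of 56 T/NK cell-like cells (upper limit 5.36%) and 0 of 81 neutrophil-like cells (upper limit 3.70%). The intervals and limits overlapped throughout, so that by share none of the 3 genes could be told from these cells at this depth. Macrophage-like cells, of which 24.2% (19.4 to 29.6) held a Mt1 UMI after thinning, were not in the comparison of shares for Mt1. By level, their 35.9 CPM of Mt1 in LSECs with 0 Maf UMIs was above the upper bounds in T/NK cell-like (19.0 CPM) and neutrophil-like cells (30.7 CPM). It was within the interval of B cell-like cells (22.7 to 87.2 CPM). It was below the level in barcodes under 1500 UMIs (85.6 CPM, 67.1 to 107.6), monocyte-like (74.1 CPM) and macrophage-like cells (147 CPM). Against all control LSECs, the levels in LSECs with 0 Maf UMIs were 12.6-fold lower for Mt1, 26.4-fold for Mt2 and 19.2-fold for Slc39a8.

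LSECs of both libraries were clustered together without the zinc genes, which gave 8 clusters. Control cells made up most of clusters 1, 4, 5 and 6, which held 4022 control and 196 Maf LSEC-KO LSECs, and Maf LSEC-KO cells most of the others. In the control library Mt1 ranged over clusters with at least 50 cells from 130 CPM in cluster 7, led by proliferation genes such as Mki67 and Top2a, and 214 CPM in cluster 4, with Cyp26b1 among its leading genes, upwards. Clusters 5, 1 and 6 had 425, 585 and 617 CPM. Clusters 1 and 6 were closest, with intervals of 573 to 596 and 583 to 653 CPM that overlapped. Haemoglobin genes led clusters 5 and 6, at median depths of 4816 and 3347 UMIs against 10887.5 UMIs in cluster 1. The top 10 genes of cluster 6 also included the hepatocyte genes Mup3, Alb, Mup11, Mup20 and Serpina1c, and the 8 hepatocyte genes examined summed to 446 CPM in its control cells and 318 CPM in those of cluster 5, against 136 CPM in cluster 1 and 106 CPM in cluster 4. The part of hepatocyte mRNA in the Mt1 level of these clusters was not tested. Slc39a8 spanned less, with its lowest level in cluster 7 (117 CPM) and its highest in cluster 1 (286 CPM).

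**Figure D3:**
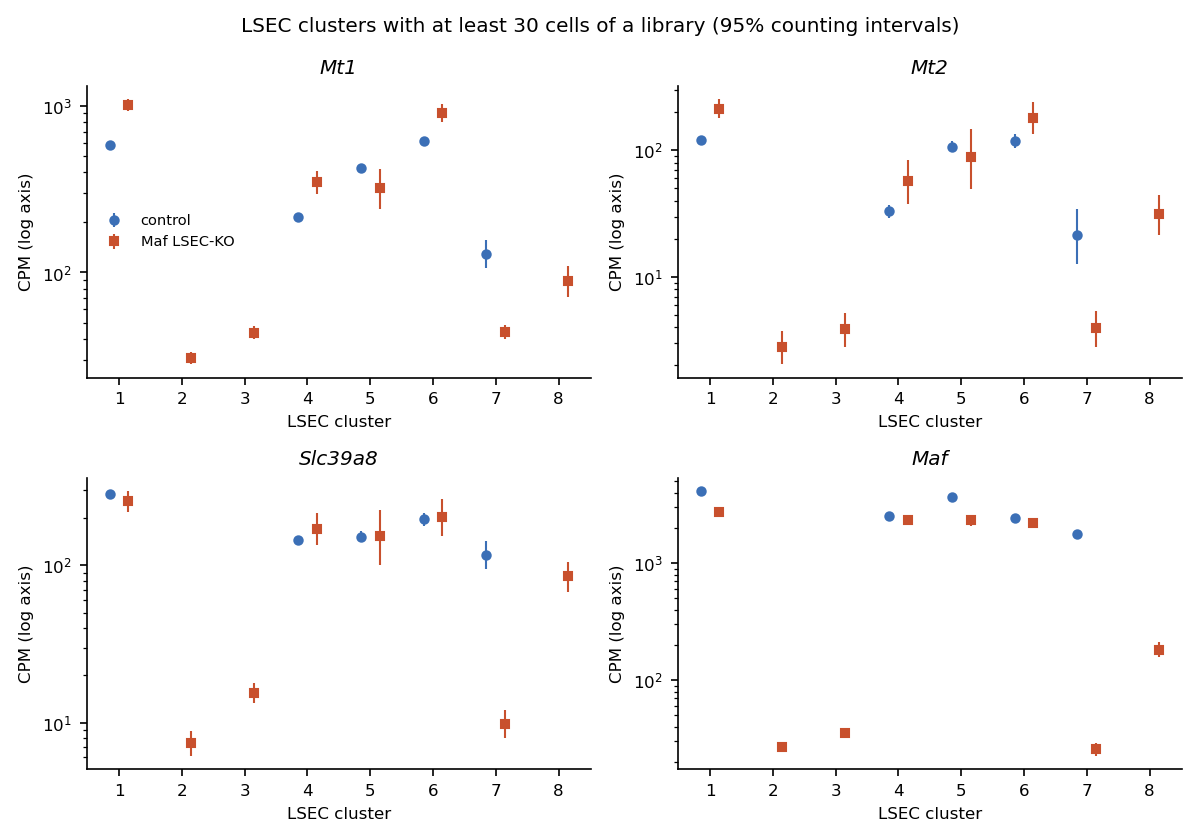
Level in CPM (log axis) of Mt1, Mt2, Slc39a8 and Maf in the 8 LSEC clusters, control in blue and Maf LSEC-KO in red, with 95% counting intervals; clusters with under 30 cells of a library are left out for that library. In clusters 1, 4, 5 and 6 the red points of Mt1 (1012, 349, 321 and 908 CPM) lie near or above the blue ones (585, 214, 425 and 617 CPM), and in clusters 2, 3 and 7 they lie at 30.8, 43.5 and 43.9 CPM.

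The few Maf LSEC-KO cells in clusters made up mostly of control cells held Mt1, Mt2 and Slc39a8 at levels near or above control. In the 196 Maf LSEC-KO LSECs of clusters 1, 4, 5 and 6, Maf was at 2469 CPM, Mt1 at 719 CPM (677 to 763), Mt2 at 147 CPM (129 to 168) and Slc39a8 at 210 CPM (187 to 234), against 3528, 463, 93.8 and 224 CPM in control cells of these clusters. Within these clusters the log2 ratio between the libraries (Maf LSEC-KO over control) was 0.64 (0.55 to 0.72) for Mt1, 0.65 (0.45 to 0.85) for Mt2 and -0.10 (-0.26 to 0.07) for Slc39a8. Hmox1 was also higher there, at 114 CPM (97.4 to 132) in Maf LSEC-KO and 40.7 CPM (38.5 to 43.0) in control cells, and its part in the Mt1 difference was not tested. Mt1 was higher in Maf LSEC-KO than in control cells of clusters 1, 4 and 6, with log2 ratios of 0.79, 0.70 and 0.56, and lower in cluster 5, at -0.40 (-0.82 to -0.01) on 54 UMIs. In the 3056 Maf LSEC-KO LSECs of the other clusters, Mt1 was at 39.3 CPM, Mt2 at 4.14 CPM and Slc39a8 at 12.4 CPM. Conversely, the 63 control cells of proliferation cluster 7 kept Maf at 1791 CPM and held 130 CPM of Mt1 (106 to 157), against 43.9 CPM (39.8 to 48.2) in 542 Maf LSEC-KO cells of the same cluster with Maf at 25.6 CPM. In cluster 8, led by Dcn and Ccl21a, the 84 Slc39a8 UMIs of the Maf LSEC-KO library (85.3 CPM) came from 7 of 94 cells. They were 10.6% of the Slc39a8 UMIs of Maf LSEC-KO LSECs. Of these 94 cells, 52.1% held a Clec4g UMI (421 CPM), against 95.2% of all Maf LSEC-KO LSECs (1509 CPM). The name LSEC is thus less sure for this cluster. Without the LSECs that held a Mki67 or Top2a UMI, which left 66.5% of the Maf LSEC-KO LSECs, the log2 ratio was -2.56 for Mt1, -2.87 for Mt2 and -3.25 for Slc39a8.

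Over quartiles of a zonation score, metallothionein levels were higher in the most central than in the most portal LSECs. LSECs of each library were divided into 4 equal parts by a score of central and portal landmark genes. In control LSECs Mt1 was at 519 CPM (503 to 535) in the most central quartile, at 510 (495 to 525) and 435 CPM (422 to 449) in the next ones and at 327 CPM (314 to 341) in the most portal quartile. Mt2 went from 108 to 103, 91.6 and 61.3 CPM. The first 2 quartiles overlapped in their intervals for both genes, and the portal quartile was lowest. The log2 ratio of the central to the portal quartile was 0.67 for Mt1 and 0.82 for Mt2 in control, while Slc39a8 was at 201, 230, 238 and 209 CPM (log2 ratio -0.05). Slc30a1 was at 50.3, 47.4, 46.4 and 39.5 CPM. The portal quartile was the shallowest, with a median of 6795 UMIs against 8522 in the central quartile, and held more hepatocyte mRNA (271 against 108 CPM), and the part of either in the slope was not tested. The clusters did not follow this order: the central gene Wnt2 was at 319, 316 and 111 CPM in control cells of clusters 1, 4 and 5, where Mt1 was at 585, 214 and 425 CPM.

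**Figure D4:**
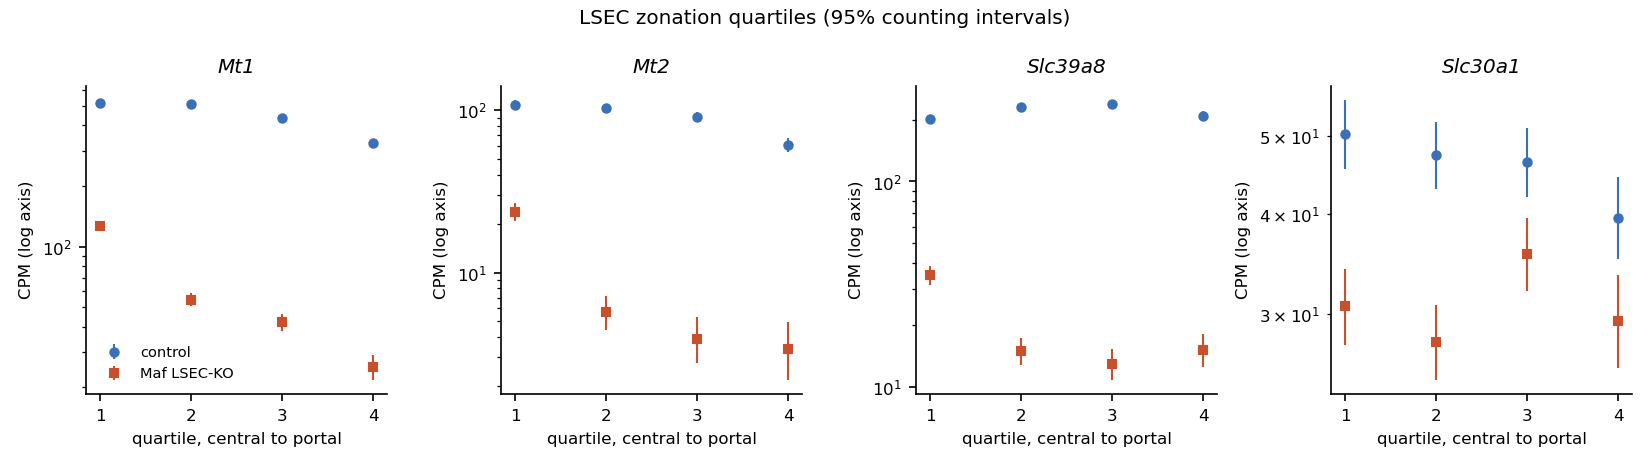
Level in CPM (log axis) of Mt1, Mt2, Slc39a8 and Slc30a1 in 4 quartiles of LSECs from central (1) to portal (4), control in blue and Maf LSEC-KO in red, with 95% counting intervals. From quartile 1 to 4, Mt1 goes from 519 to 327 CPM in control and from 126 to 25.2 CPM in Maf LSEC-KO LSECs.

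In Maf LSEC-KO LSECs Mt1 was at 126, 54.6, 42.01 and 25.2 CPM and Slc39a8 at 35.0, 14.9, 12.97 and 15.2 CPM from central to portal. The Maf level in these quartiles was 281, 80.5, 70.4 and 47.2 CPM, and 29.6% of the most central and 13.8% of the most portal LSECs held a Maf UMI, at median depths of 15136 and 10115 UMIs. The score of this library rested on 7 central and 24 portal landmark genes, against 28 and 12 in control. Mt1 was lower in Maf LSEC-KO than in control in each of the 4 quartiles, by 4.11-fold in the most central and by 12.96-fold in the most portal.

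Outside the cells counted as LSECs, the 6 genes differed by cell type. Endothelial cells with a Vwf UMI, which were set apart from LSECs, numbered 161 in control and 1182 in Maf LSEC-KO. Maf was at 1829 and 29.3 CPM in them. The LSEC gene Clec4g was found in 98.1% (1705 CPM) and 94.8% (1152 CPM) of these Vwf+ cells. In LSECs it was found in 98.5% (3010 CPM) and 95.2% (1509 CPM). By this share the Vwf+ cells could not be told from LSECs, so they are not shown to be another cell type. Mt1 was at 177 CPM (157 to 198) and 23.1 CPM (20.9 to 25.5) in the Vwf+ cells, Mt2 at 36.5 and 2.30 CPM and Slc39a8 at 111 and 20.8 CPM. In control these cells were below LSECs for each of the 3 genes, and in Maf LSEC-KO they were below LSECs for Mt1 and Mt2, with Slc39a8 at a like level (18.7 to 23.0 against 18.4 to 21.2 CPM). Slc30a1 and Mtf1 were at 31.9 and 35.3 CPM in control and 34.1 and 37.4 CPM in Maf LSEC-KO Vwf+ cells, with overlapping intervals.

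**Figure D5:**
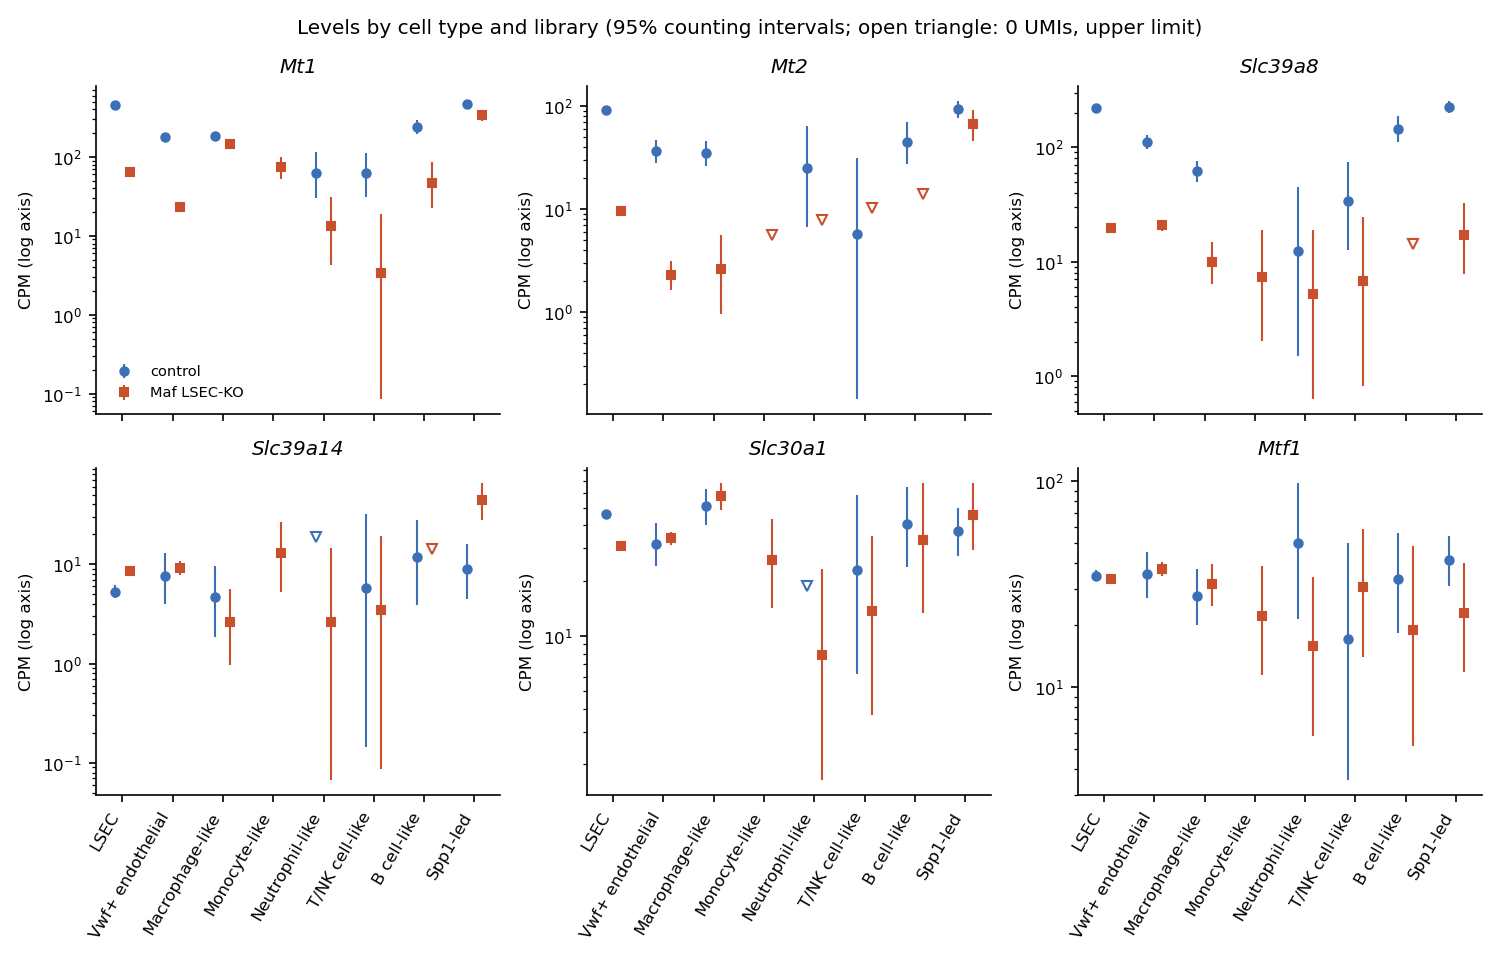
Level in CPM (log axis) of the 6 genes by cell type in the control (blue) and Maf LSEC-KO (red) library, with 95% counting intervals; open triangles give the upper limit where 0 UMIs were counted. Mt1 in LSECs is at 453 and 64.9 CPM, while in macrophage-like cells it is at 185 and 147 CPM, with Mt2 at 35.0 and 2.60 CPM.

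Immune cells of the control library also held LSEC mRNA. Control T/NK cell-like cells held Clec4g, an LSEC gene, at 536 CPM, B cell-like cells at 2055 CPM and macrophage-like cells at 934 CPM, against 3010 CPM in LSECs. In the B cell-like cells, 26 of 47 (55.3%) held a Clec4g UMI at a median depth of 7540 UMIs. Mt1 was at 62.7 CPM in these T/NK cell-like, 243 CPM in the B cell-like and 185 CPM in the macrophage-like cells, and Slc39a8 at 34.2, 145 and 62.0 CPM. Both genes thus had the same order as Clec4g in these 3 types, and the part of LSEC mRNA in their levels was not tested. In the Maf LSEC-KO library, where LSECs held little of the 3 genes, B cell-like cells had 10 UMIs of Mt1 and 0 of Slc39a8, and T/NK cell-like cells 1 UMI of Mt1 and 2 of Slc39a8.

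Macrophage-like cells of the Maf LSEC-KO library held Mt1 but little Mt2. The 389 cells held 338 UMIs of Mt1 (147 CPM, 131 to 163) and 6 of Mt2 (2.60 CPM, 0.955 to 5.67), which is 56.3 UMIs of Mt1 per UMI of Mt2 (25.6 to 155). In LSECs of this library the ratio was 6.81 (6.11 to 7.60), and the intervals did not overlap. In barcodes under 1500 UMIs it was 12.2 (5.33 to 34.2), which overlapped the interval of the macrophage-like cells. Hepatocyte genes summed to 1101 CPM in the macrophage-like cells, against 600 CPM in control macrophage-like cells, and the part of mRNA from other cells in these levels was not tested. In the control library macrophage-like cells had a ratio of 5.30 (3.94 to 7.25), next to 4.91 (4.72 to 5.11) in LSECs. These macrophage-like cells held Maf at 1512 CPM in Maf LSEC-KO mice, together with 9.98 CPM of Slc39a8 and 57.7 CPM of Slc30a1, the highest Slc30a1 level of the cell types of this library, although the interval (48.3 to 68.4 CPM) overlapped that of Spp1-led cells (29.4 to 68.2 CPM). Hmox1 was at 381 CPM in control and 1302 CPM in Maf LSEC-KO macrophage-like cells. The 70 monocyte-like cells of the Maf LSEC-KO library also held Mt1 (74.1 CPM, 40 UMIs) with 0 UMIs of Mt2.

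The highest Mt1 level of the cell types of the Maf LSEC-KO library was in 37 cells of a cluster with Spp1 at 22104 CPM, which was given no cell type name. Mt1 was at 336 CPM (288 to 390), Mt2 at 66.8 CPM (46.5 to 92.9) and Slc39a14 at 43.9 CPM (27.8 to 65.9) in them, the latter above the 8.58 CPM of LSECs, with Slc39a8 at 17.2 CPM. Clec4g was at 26.7 CPM in these cells and Alb at 3950 CPM, so they held little LSEC and much hepatocyte mRNA. The top 10 genes of their cluster, taken before doublets were removed, also included Krt8, Krt18 and the cholangiocyte markers Epcam and Sox9. The cholangiocyte markers Krt7 and Krt19 were not among these top genes. In the control library, the cluster given the same name held Spp1 UMIs in 8 of its 130 cells (6.15%), against 37 of 37 in Maf LSEC-KO. It carried Clec4g at 2604 CPM and Maf at 3196 CPM, close to LSECs, so its levels of the 6 genes were not compared with those of the Maf LSEC-KO cluster. In order of Mt1 level, the Maf LSEC-KO cell types were Spp1-led, macrophage-like, monocyte-like, LSEC, B cell-like, Vwf+ endothelial, neutrophil-like and T/NK cell-like cells. The intervals of monocyte-like cells, LSECs and B cell-like cells overlapped (52.9 to 101, 62.4 to 67.4 and 22.7 to 87.2 CPM), as did those of each later neighbour in the order.

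Within Maf LSEC-KO LSECs, the proportion of Mt1 to Mt2 differed between cells with most and with no Maf UMIs. LSECs of the Maf LSEC-KO library with 5 or more Maf UMIs had 4.84 UMIs of Mt1 per UMI of Mt2 (4.21 to 5.596), overlapping the 4.91 of control LSECs. LSECs with 0 Maf UMIs had 10.3 (8.42 to 12.7), and the intervals did not overlap, so that Mt2 was lower than Mt1 in proportion. The ratio of 12.2 in barcodes under 1500 UMIs of this library overlapped that of the cells with 0. In control LSECs the ratio was 6.33 (1.86 to 33.4, on 3 Mt2 UMIs) at 0 Maf UMIs and 5.15 (2.82 to 10.2) at 1. It was 4.87 (3.70 to 6.51) at 2 to 4 and 4.91 (4.72 to 5.11) at 5 or more. The control LSECs with 0 Maf UMIs were 23 shallow cells, with a median of 2668 UMIs against 8982 at 5 or more. Their interval also held the 10.3 of Maf LSEC-KO, so the control library cannot show whether such a difference is absent there. The part of mRNA from other cells in this ratio was not tested.

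Metallothionein counts were unevenly spread over LSECs. In control, the 411 LSECs with most UMIs of Mt1 (10% of LSECs) held 42.3% of all Mt1 UMIs, the median cell held 2 and the highest 53. In Maf LSEC-KO, the 325 LSECs with most (10%) held 76.8%, the median cell held 0 and the highest 51. These are UMIs as counted, at unequal depth. Over LSECs thinned to the same depth, counts of Mt1 and Mt2 had a Pearson's r of 0.386 (Spearman's rho 0.290) over 3704 control LSECs and 0.493 (0.348) over 3065 of Maf LSEC-KO. For Mt1 and Maf, r was 0.119 (control) and 0.442 (Maf LSEC-KO). For Mt1 and Mtf1, r was 0.0184 and 0.00297. The cells of a library share its preparation and counts are sparse, so these values are descriptions.

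Over 26 groups of cells (cell types and LSEC clusters of each library with at least 25 cells), Mt2 was the gene most like Mt1, with a Pearson's r of log2(CPM + 5) of 0.917. It was followed by Tns3 (0.911), Dhrs3 (0.872), Slc7a7 (0.861) and Fcgrt (0.857), the neonatal Fc receptor, among the 4511 genes that reached 50 CPM in LSECs of a library. Slc39a8 ranked 15 (0.826) and Maf ranked 50 (0.766). In control and Maf LSEC-KO LSECs, Tns3 was at 207 and 70.9 CPM and Fcgrt at 649.6 and 75.4 CPM. Groups of the same library share its background mRNA.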

How the data were processed

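Liver non-parenchymal cells were enriched for CD146 and sequenced as 10x 3′ libraries, 1 per group, each from 3 pooled mice. The authors aligned and counted reads with Cell Ranger 6.0.2 against mm10, and the submitters' processing notes also name Seurat 5.0.1. The deposited values are UMI counts, with no normalization, for barcodes of at least 500 UMIs. The study later subtracted empty-droplet mRNA, a step these counts do not include and which was left out here, so free mRNA remains. Barcodes of at least 1500 UMIs and 750 genes were kept. Scrublet (scanpy 1.11.5) called 0 doublets automatically, so the highest-scoring expected share was removed (225 control and 308 Maf LSEC-KO cells), a choice made after the scores were seen.

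Each library was clustered in Seurat 5.3.0 (16 and 20 principal components, resolution 0.3) and LSECs of both together after sctransform 0.4.2 (3000 variable genes, 22 components, resolution 0.3), without the zinc genes. A cluster was endothelial where Pecam1 and at least 7 of 14 endothelial genes were found in at least 50% of cells. None of Adgre1, Clec4f, Ptprc, Cd52, Acta1 and Arg1 could be in over 50%. A cluster with Spp1 as its first gene was left without a type name, and its cells were not counted as LSECs. In control this cluster had Pecam1 in 79.5% of cells and all 14 endothelial genes in at least 50%. Others were named "-like" where at least 3 markers were among the top 50 genes. UMIs were summed per gene and cell type and given as CPM, and a difference was called at 2-fold among genes of at least 10 CPM. Intervals are exact Poisson for sums and ratios and Clopper-Pearson for shares (scipy 1.17.1, numpy 2.4.6, Python 3.11.15). A count of 0 allows up to 3 counts. LSECs were thinned to 2700 UMIs to compare shares. TMM factors came from edgeR 4.0.16 (R 4.3.3). The calculation was tested on simulated data.

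Zones were quartiles of a score from landmark genes, taken by Spearman correlation with the summed share of Cdh13 and Wnt2, in control also Rspo3 and Wnt9b (above 0.3 for central and below -0.2 in control or -0.1 in Maf LSEC-KO for portal landmarks). The naming rule took the 6 genes, other zinc genes of at least 10 CPM in LSECs of either library, members of the other lists at least 2-fold apart, and the 5 genes most like Mt1. Any further gene of these lists named in the text was chosen after its values were seen. The members, lists and motif letters were chosen with earlier results of these data known. Alternatives covered cell filters, doublets, clustering resolution (0.5), scaling, thinning and subsets of LSECs.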

Additional observations from a re-analysis of the deposited data

Results flagged for a closer look

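Barcodes under 1500 UMIs were left out of the comparisons between the libraries. In those of the Maf LSEC-KO library (1565 barcodes, median 671 UMIs), Slc39a14 was at 4.69 CPM (4 UMIs, 1.28 to 12.01), against 0 UMIs in the 657 such barcodes of the control library, which allows up to 8.08 CPM. Slc30a1 was at 34.0 CPM (29 UMIs, 22.8 to 48.8) in the Maf LSEC-KO barcodes and at 21.6 CPM (8 UMIs, 9.31 to 42.5) in the control barcodes. Both were listed because the level was above that of the control library, and for both the counting intervals overlapped.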

How the results depend on the processing

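No paired analysis was possible because each group had 1 library. Over 15 alternatives, the log2 ratio in LSECs (Maf LSEC-KO over control) ranged from -3.66 to -2.53 for Mt1, from -4.72 to -2.86 for Mt2 and from -4.26 to -3.17 for Slc39a8, all past 2-fold, and from 0.51 to 0.79 for Slc39a14, from -0.78 to -0.43 for Slc30a1 and from -0.25 to -0.01 for Mtf1, with no change of sign. Scaling shifted all genes by -0.19 (UMIs of all genes), -0.15 (TMM) or -0.16 (median of ratios).

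Values that moved by more than the counting interval follow in the order Mt1, Mt2, Slc39a8. They were -2.56, -2.87 and -3.25 without LSECs with a Mki67 or Top2a UMI, and -3.66, -4.72 and -4.26 with only Maf LSEC-KO LSECs of 0 Maf UMIs. They were -2.99, -3.46 and -3.67 with scaling to all genes, -2.96, -3.44 and -3.64 with median-of-ratios scaling, -2.53, -2.98 and -3.17 as a mean CPM per LSEC, and -2.53, -2.86 and -3.33 after thinning. They were -3.53, -4.48 and -4.16 with only knockout-majority clusters, and -2.94, -3.46 and -3.70 without the haemoglobin-led clusters 5 and 6, both chosen after seeing the data. TMM gave -2.96 for Mt1 and -3.63 for Slc39a8, keeping LSECs with a Vwf UMI gave -3.07 for Mt1 and -3.61 for Mt2, and leaving out LSECs with 2 stellate genes gave -3.62 for Slc39a8. Slc30a1 moved to -0.43 without Mki67 or Top2a, -0.71 with 0 Maf UMIs, and -0.78, -0.74 and -0.75 with all-gene, TMM and median-of-ratios scaling, and Mtf1 to -0.25, -0.21 and -0.22 with these scalings. Of 9317 genes, 423 were lower and 975 higher, which became 251 and 365 at 50 CPM, 1530 and 3262 without a filter, and 932 and 2015 at 1.5-fold. Subtraction of hepatocyte mRNA was not run, since 0 barcodes per library reached 20% hepatocyte UMIs and 10 were needed. With a portal limit of -0.1, the control log2 ratio of Slc39a8 between the pericentral and periportal quartiles went from -0.05 to 0.08. At a clustering resolution of 0.5, the log2 span over control LSEC clusters of at least 50 cells went from 2.25 to 1.51 for Mt1, from 2.47 to 2.03 for Mt2 and from 1.29 to 1.052 for Slc39a8. The pools of 3 mice leave the spread between animals unknown, and depth limits statements on Slc39a14.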
